A study of Mus musculus with 4 samples.

Results

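Tracheal epithelial cells of barcode libraries 2 and 4 were compared within 3 classes of cells: ciliated, secretory and basal. A cell entered if it had at least 300 genes and at most 20% of its unique molecular identifiers (UMIs, 1 per captured RNA molecule) from mitochondrial genes, and then met a marker gate. The ciliated gate asked for at least 0.3% of UMIs from Ccdc153, Tmem212, Dynlrb2 and Rsph1 together and under 2% from Scgb1a1. The secretory gate asked for at least 5% from Scgb1a1 and under 0.05% from the 4 ciliated genes, and the basal gate for at least 0.2% from Krt5, Krt14, Krt15 and Aqp3 together and under 2% from Scgb1a1. These gates took 6690 of the 9395 filtered cells of libraries 2 and 4, out of 20359 filtered cells in the series. Library 2 gave 844 ciliated, 1214 secretory and 634 basal cells, and library 4 gave 1068, 1541 and 1397; 8 cells met both the ciliated and the basal gate and stand in both. The members were thus chosen by the measured shares of 9 gate genes, which are left out of every count of genes.

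The study took tracheas from mice aged 5 to 8 months on the 129S6/SvEvTac background. Its 4 groups, 1 library each, were wild-type mice, bgh mice with mutated Spef2, nm1054 mice, which lack Cfap221, and Cfap54gt/gt mice, in which a gene trap interrupts Cfap54. Each library pooled cells from 6 tracheas, or from 5 for bgh, so single animals cannot be told apart. No source used here ties a library number to a genotype, and neither listing order nor gene levels were used to make that link, so the libraries are called by their barcode suffix and no value below compares genotypes. With 1 library on a side there is no replicate and no test. The intervals given are 95% and cover counting error only, and libraries 1 and 3 are shown as the only view of how far libraries lie apart.

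The 3 mutated genes code for proteins of the central apparatus, the pair of microtubules with its projections at the core of a motile cilium. The central apparatus and the radial spokes regulate the dynein arms, the motors that bend the cilium, and defects in it cause primary ciliary dyskinesia, in which mucus is poorly cleared. In the mouse trachea, basal cells are stem cells that give rise to secretory cells, and secretory cells give rise to ciliated cells. Secretory cells release secretoglobins, lectins and antibacterial proteins into the airway fluid, and under injury or retinoid loss basal cells can turn to a squamous program with small proline-rich proteins and cornified envelope genes.

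The classes carried the markers of their names. In ciliated cells Foxj1, the master regulator of motile cilia, stood at 429.6 against 424 CPM (UMIs of the gene per 1000000 UMIs of the class) in libraries 2 and 4, and Tppp3 at 2958 against 3019 CPM. In basal cells Trp63, the defining transcription factor of basal cells, stood at 39.8 against 31.8 CPM. Other basal markers went the other way, such as Apoe at 960 against 1260 CPM. The 10 basal markers, which include the gate genes, summed to 6157 against 7448 CPM. In secretory cells the 10 secretory markers, which include the gate gene Scgb1a1, summed to 383386 against 395239 CPM. Filtered cells had a median of 7187 and 6935 UMIs in libraries 2 and 4. Within the classes the median UMIs of library 2 against library 4 were 2107.5 against 2299 for ciliated, 12915.5 against 11385 for secretory and 4281 against 4568 for basal cells. The median share of mitochondrial UMIs was 3.18% against 3.12%, 4.06% against 3.71% and 5.78% against 4.70% in the same order. Where shares of cells are given after thinning to 1000 UMIs, shallower cells were left out: 100 and 176 ciliated, 18 and 14 secretory and 7 and 13 basal cells of libraries 2 and 4. Near the gates, library 2 had 32 ciliated cells at up to 10% above the bound and 29 at up to 10% below it, and library 4 had 56 and 56. The same counts were 23 and 24 against 35 and 37 for secretory, and 43 and 37 against 52 and 51 for basal cells. Cells that met no gate were 32.0% of filtered cells in library 2 and 26.5% in library 4. Of all barcode sequences, 4 occurred in both libraries, and none of these was a class cell in both.

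The promoters of Sprr1a, Reg3g and Lyz2 are printed because, among the genes counted as apart below, Sprr1a and Lyz2 had the largest differences in CPM towards library 2 in basal and in ciliated cells, and Reg3g the largest towards library 4 in ciliated cells. Sprr1a codes for a small proline-rich protein of the cornified envelope, Reg3g for a secreted lectin that binds Gram-positive bacteria, and Lyz2 for lysozyme, which cuts bacterial cell walls. Each runs from 250 bases before to 50 bases after the start of the gene, 5′ to 3′ on the minus strand, from RefSeq on GRCm38.p6, at chr3:92485832-92486131, chr6:78468825-78469124 and chr10:117282223-117282522 in that order. Capitals mark matches to TGANTCA, the AP-1 motif, searched on both strands.
Sprr1a: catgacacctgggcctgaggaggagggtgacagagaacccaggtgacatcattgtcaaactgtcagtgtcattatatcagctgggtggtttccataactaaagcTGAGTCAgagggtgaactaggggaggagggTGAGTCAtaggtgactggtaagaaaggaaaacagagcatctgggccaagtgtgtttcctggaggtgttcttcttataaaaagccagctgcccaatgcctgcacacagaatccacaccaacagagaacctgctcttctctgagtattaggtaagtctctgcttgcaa
Reg3g: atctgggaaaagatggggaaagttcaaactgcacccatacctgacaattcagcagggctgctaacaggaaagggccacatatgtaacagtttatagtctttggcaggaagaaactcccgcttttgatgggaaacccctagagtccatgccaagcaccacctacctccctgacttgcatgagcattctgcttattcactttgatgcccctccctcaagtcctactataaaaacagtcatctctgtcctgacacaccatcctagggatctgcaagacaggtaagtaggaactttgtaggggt
Lyz2: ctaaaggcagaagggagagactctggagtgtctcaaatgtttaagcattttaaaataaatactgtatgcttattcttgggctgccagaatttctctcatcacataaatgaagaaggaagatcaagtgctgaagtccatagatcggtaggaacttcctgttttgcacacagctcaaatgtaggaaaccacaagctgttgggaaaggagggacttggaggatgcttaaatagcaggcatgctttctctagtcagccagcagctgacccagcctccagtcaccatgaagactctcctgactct
The Sprr1a window held the AP-1 letters at bases 105 and 135, and the other two windows held none. Of 27025 promoters of the same length, 2144 (7.93%) held a match. The STAT motif TTCNNNGAA, also searched on both strands and held by 8.47% of promoters, had no match in these 3 windows. A match is a description of letters only.

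Basal cells made up a smaller part of library 2. They were 16.0% of its filtered cells (exact interval 14.9% to 17.2%) and 25.7% of those of library 4 (24.5% to 26.9%), 1.60-fold more. In libraries 1 and 3 the basal share was 16.1% and 19.8%, so library 4 was the highest of the 4. Ciliated cells were 21.3% (20.1% to 22.7%) in library 2 and 19.6% (18.6% to 20.7%) in library 4, and their intervals overlap. Secretory cells were 30.7% (29.3% to 32.2%) and 28.3% (27.1% to 29.5%), and these intervals overlap as well. An overlap of separate intervals does not show that 2 shares are equal. Plating and dead-cell removal before capture can set such shares, and their part was not tested.

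**Figure D1:**
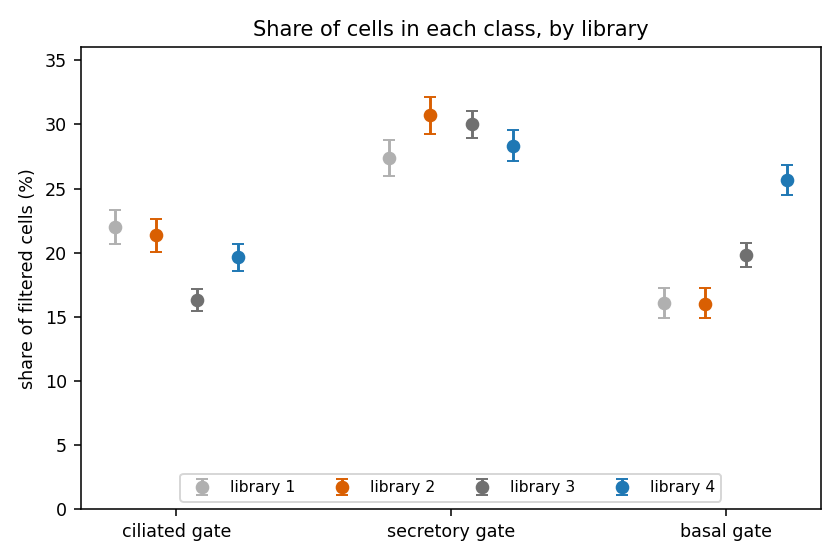
Share of filtered cells (%) in each marker class for libraries 1 to 4, with 95% exact binomial intervals. The basal share of library 4, 25.7%, lies above the other 3 libraries, which hold 16.0% to 19.8%.

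A gene was counted as apart between libraries 2 and 4 if it had at least 100 UMIs over both, if log2 of the ratio of CPM, with 1 CPM added to each, was at least 1 in size, and if the exact interval of the ratio excluded 1. In ciliated cells 33 of 6326 genes tested were higher in library 2 (0.522%) and 35 were lower (0.553%). In secretory cells 114 of 9083 were higher (1.26%) and 80 lower (0.881%), and in basal cells 94 of 7387 were higher (1.27%) and 84 lower (1.14%). The median log2 ratio over all genes tested was -0.03, 0.02 and -0.03. Other pairs of libraries give the spread of such shares. In ciliated cells 1.07% of genes were apart either way between libraries 2 and 4, against 0.545% for libraries 1 and 4, 1.58% for 3 and 4, 1% for 1 and 2, 0.86% for 2 and 3 and 1.99% for 1 and 3. In secretory cells it was 2.14%, against 1.06%, 1.06%, 0.879%, 1.42% and 2.26% for the same pairs in that order, so another pair lay further apart in both classes. In basal cells it was 2.41%, against 1.61%, 1.12%, 0.988%, 1.04% and 1.45%, the highest of the 6 pairs. Pairs differ in depth and share libraries, so these shares are descriptive.

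**Figure D2:**
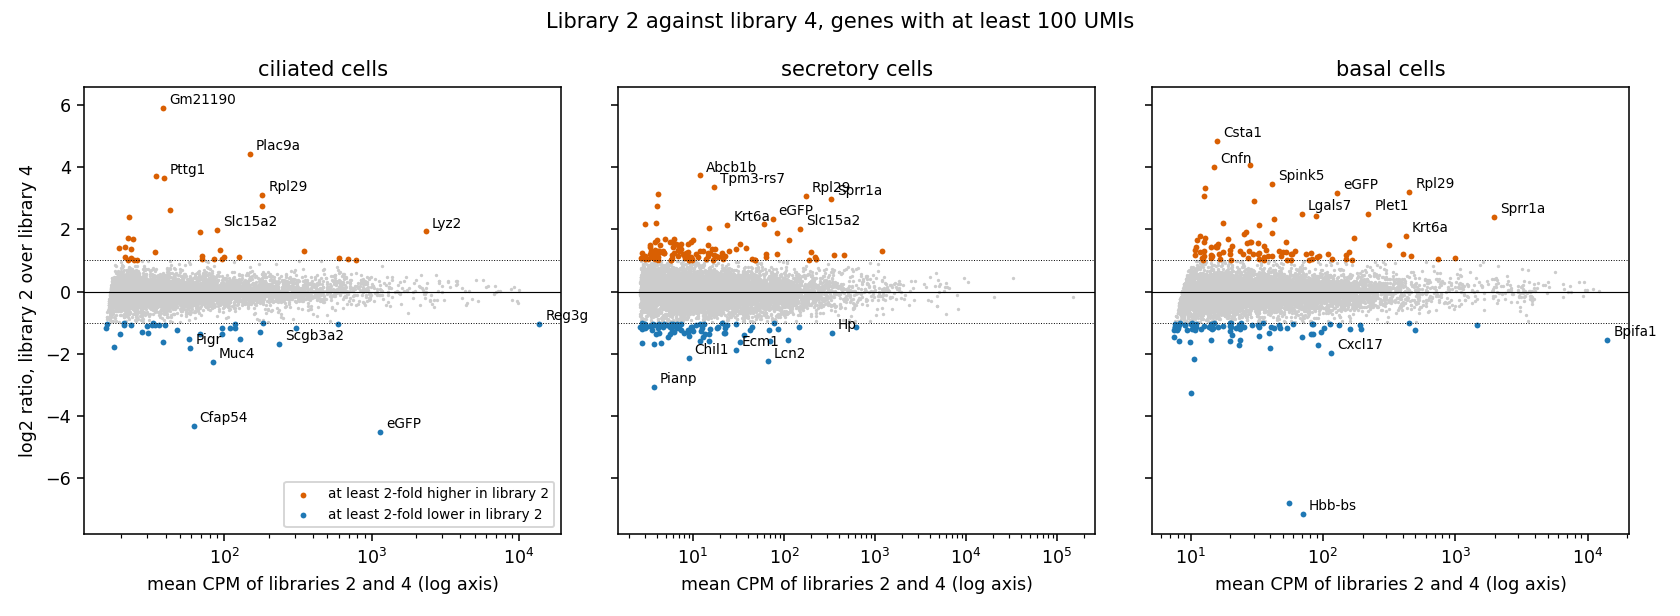
Log2 ratio of library 2 over library 4 against the mean CPM of both libraries (log axis), 1 point per gene with at least 100 UMIs; dotted lines mark 2-fold, and orange and blue points are genes apart. Most genes lie near 0 in all 3 classes, with eGFP and Cfap54 far below it in ciliated cells and Rpl29 and Sprr1a far above it in secretory and basal cells.

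Of the 3 mutated genes, Cfap54 was apart between libraries 2 and 4 in ciliated cells, Spef2 was not, and Cfap221 had too few UMIs to be tested. The Cfap54 level in ciliated cells of libraries 1 to 4 was 125, 5.05, 122 and 119.6 CPM, the order in which 4 values are given throughout. Library 2 alone was low, with 12 and 423 UMIs in libraries 2 and 4, a level 23.7-fold (13.4 to 46.2) lower. A UMI of Cfap54 was found in 1.42% of ciliated cells in library 2 (0.74% to 2.47%) and in 27.0% in library 4 (24.3% to 29.7%), or 0.40% and 11.996% after thinning each cell to 1000 UMIs. In secretory cells, which lack motile cilia, those shares were 0.082% and 2.34%, at the higher median depths given above. Spef2 stood at 195, 262, 246 and 242 CPM in ciliated cells, with the 4 libraries within 195 to 262. Cfap221 was low everywhere, at 12.8, 14.3, 0 and 11.03 CPM with 34 and 39 UMIs in libraries 2 and 4. Library 3 had 0 UMIs. These levels are measurements of each library and assign no genotype. Among the 20 tested genes on each side of Cfap54, 1 of 40 was apart in ciliated cells, where 1.07% of all genes tested were. This was Timp3, an inhibitor of metalloproteinases, at 189 against 429 CPM. The median log2 ratio of the 40 was -0.01.

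The other lists of ciliary genes lay close between the libraries. Of 18 central apparatus genes tested, Cfap54 was the 1 that was apart, and the other 17 lay within 0.5 log2 units. Hydin, a large projection protein, stood at 109, 118, 143 and 149.6 CPM, and Spag6l, a central pair scaffold, at 149.8, 170.2, 171 and 181 CPM. Of 17 radial spoke genes 1 was apart, Morn3, at 45.7, 115, 50.2 and 54.8 CPM and highest in library 2; the spoke head gene Rsph4a stood at 114, 127, 149 and 146 CPM. None of 32 dynein arm and docking genes, 15 dynein assembly factors, 32 intraflagellar transport genes, 17 microtubule inner proteins, 9 regulators of ciliogenesis or 10 tubulins was apart, where 1.07% of all genes tested were. At that share, lists of these sizes would hold few calls in any case. The median log2 ratios of these lists ran from -0.08 to 0.11. The outer arm motor Dnah5 stood at 217 against 252 CPM and the transport protein Ift88 at 153 against 160.3 CPM in libraries 2 and 4. All 32 tested genes of the dynein arm and docking list lay within 0.5 log2 units, from Dnah11 at -0.50 to Drc1 at 0.40. Over all genes tested in ciliated cells the quartiles of the log2 ratio were -0.21 and 0.15. Genes outside these lists thus lay close as well, and closeness was not particular to cilia genes.

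**Figure D3:**
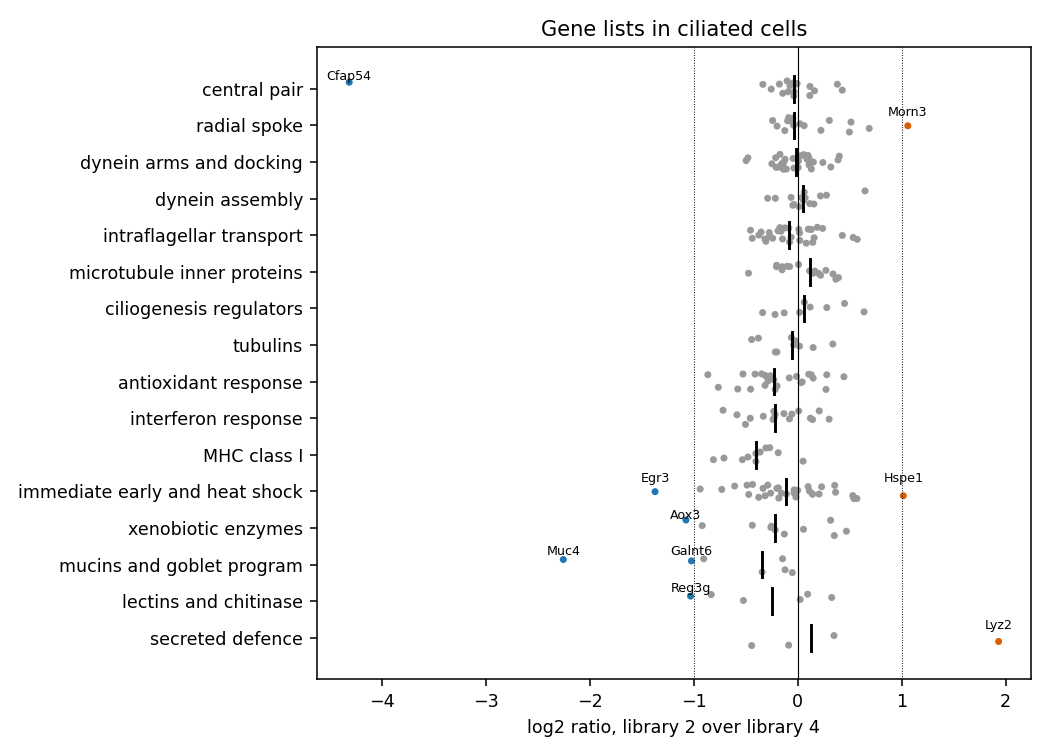
Log2 ratio of library 2 over library 4 in ciliated cells for the tested members of 16 gene lists, 1 point per gene, with black bars at the list medians and dotted lines at 2-fold. Cilia lists sit near 0 apart from Cfap54 and Morn3, while Muc4 and Reg3g are lower and Lyz2 is higher in library 2.

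Secreted defence and mucin genes were among those apart in ciliated cells. Reg3g stood at 20657, 9038, 6298 and 18467 CPM, so libraries 2 and 3 lay below libraries 1 and 4 and library 2 was 2.04-fold (2.01 to 2.08) lower than library 4. This lay just past 2-fold; with cells thinned to 1000 UMIs the log2 ratio was -0.9964, just under it. Lyz2 went the other way, at 790.0, 3716, 1712 and 972 CPM, 3.82-fold (3.67 to 3.98) higher in library 2 than in library 4 and highest in library 2 of all 4. A UMI of Lyz2 was found in 71.7% of ciliated cells in library 2 and 38.5% in library 4 (64.7% and 27.1% after thinning), and in 12.1% and 12.03% of basal cells, a class of higher median depth in which it is low. Lyz2 is also a macrophage gene: the other 9 macrophage and dendritic cell markers summed to 11.8 CPM in library 2 and 13.6 CPM in library 4, with 7 and 6 of them at 0. Lyz1, a near copy of Lyz2, had 17 and 19 UMIs, and how reads were assigned between the copies was not tested. Muc4, a membrane mucin of the ciliated surface, stood at 163, 28.2, 84.5 and 139 CPM, lowest in library 2 and 4.91-fold (3.797 to 6.44) lower than in library 4. All 7 tested mucin and goblet genes had log2 ratios below 0, 2 of them apart (Muc4 and Galnt6, an enzyme that starts O-glycans), where 0.553% of all genes were lower, while Muc16 stood at 112 against 116 CPM. Pigr, which carries immunoglobulin A across the epithelium, stood at 25.3 against 91.9 CPM, and Scgb3a2, a secretoglobin, at 65.9, 112, 426 and 358 CPM with libraries 1 and 2 below 3 and 4. The 10 secretory cell markers summed to 15533 and 17225 CPM in ciliated cells of libraries 2 and 4, and their part in these differences was not tested. They include Scgb1a1, at 1103 against 1891 CPM, which the ciliated gate caps, so this sum was bounded in part by the rule.

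Further genes lower in library 2 ciliated cells included Idi1, Cyp51 and Pmvk, each an enzyme of sterol synthesis and chosen after its values were seen. Idi1 stood at 288, 58.96, 122 and 133 CPM, Cyp51 at 93.8, 25.3, 55.3 and 53.99 CPM and Pmvk at 333, 99.4, 133 and 248 CPM, and library 2 was the lowest for each. Other genes of that pathway were not examined as a list. Orm2, an acute phase protein, and Upk1b, a uroplakin, were low in libraries 2 and 3, at 48.9, 18.1, 6.59 and 58.5 CPM and 90.8, 29.1, 24.4 and 86.5 CPM. Acta1, skeletal muscle actin, came from few cells: 11 and 49 cells held its 157 and 673 UMIs in libraries 2 and 4. Ccn1, a matrix signal induced by stretch and serum, stood at 383 against 792 CPM, and Egr3, an early growth response factor, at 37.5 against 98.7 CPM. Among 33 tested immediate early and heat shock genes Egr3 was the 1 apart below and Hspe1, a mitochondrial chaperonin, the 1 apart above, at 1056 against 522 CPM. The list median was -0.11. Of all genes tested in ciliated cells 0.553% were lower and 0.522% higher, so lists of this size would hold few calls in any case. No member of the interferon (17 tested) or MHC class I (11 tested) list was apart. Their medians were -0.22 and -0.40, with 10 of the 11 MHC class I genes below 0. B2m, the light chain of MHC class I, stood at 297, 257, 146 and 373 CPM and H2-K1 at 734, 700.0, 713 and 925 CPM, so library 4 was the highest of the 4 for both.

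Higher in library 2 ciliated cells were several genes with near copies elsewhere in the genome. How reads were assigned among such copies was not tested. Gm21190 had 182 and 1 UMIs in libraries 2 and 4, with 2.39, 76.7, 57.03 and 0.283 CPM, high in libraries 2 and 3, and 271-fold (48.1 to 10768) higher in library 2 than in library 4. The same 2 libraries were high in Plac9a (30.5, 287, 697 and 12.4 CPM), Tpm3-rs7 (3.19, 64.9, 87.7 and 3.96 CPM) and Gm8797 (57.4, 315, 205 and 45.5 CPM). Rpl29, a ribosomal protein gene with many pseudogenes, was highest in library 2, at 70.4, 326, 82.3 and 37.03 CPM. Slc15a2, a peptide transporter, stood at 31.9, 144, 126 and 35.6 CPM and Pttg1, securin, at 7.44, 72.9, 51.6 and 4.81 CPM, again with libraries 2 and 3 above 1 and 4. Ang and Rnase4, secreted ribonucleases that lie side by side in the genome, stood at 37.1 against 10.7 CPM and 95.2 against 45.5 CPM. Sftpc, known as the surfactant gene of alveolar type 2 cells, stood at 7.44, 34.96, 81.1 and 9.89 CPM. Psca, a surface antigen, stood at 174 against 78.9 CPM in all gated cells but was lower in library 2 under stricter gates, with a log2 ratio of -0.70.

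eGFP, the coding sequence of green fluorescent protein, was a feature of the deposited table that no label mentions. It was lower in library 2 than in library 4 in ciliated cells and higher in the other classes. In ciliated cells it stood at 1809.7, 95.2, 0 and 2198 CPM, in secretory cells at 22.1, 126, 0 and 24.3 CPM and in basal cells at 22.4, 233, 0 and 24.9 CPM. Library 2 was thus 23.1-fold (20.2 to 26.5) lower than library 4 in ciliated cells, and 5.19-fold (4.698 to 5.74) and 9.35-fold (7.99 to 10.97) higher in secretory and basal cells. In library 2, an eGFP UMI was found in 21.2% of ciliated, 74.4% of secretory and 55.8% of basal cells, with at most 6, 11 and 11 UMIs in a cell. In library 4 the shares were 92.7%, 9.99% and 5.94%, with at most 121, 30 and 29 UMIs. After thinning to 1000 UMIs they were 9.81%, 9.95% and 17.9% in library 2 and 81.6%, 2.10% and 1.73% in library 4. The secretory level of eGFP was 132% of the ciliated level in library 2 and 1.10% in library 4. In library 1 the secretory level of eGFP was 1.22% of the ciliated level. Library 3 had 0 eGFP UMIs in 7156 filtered cells. Where these eGFP UMIs come from was not tested.

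**Figure D4:**
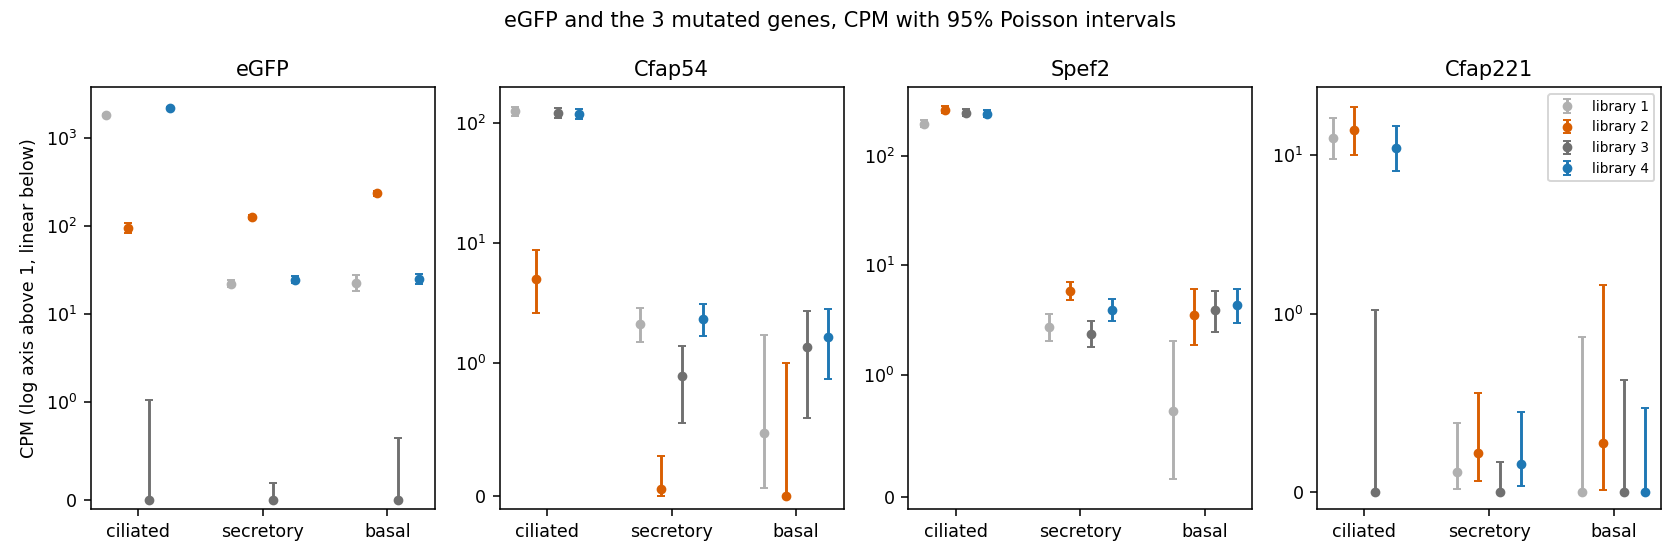
CPM of eGFP, Cfap54, Spef2 and Cfap221 in the 3 classes of libraries 1 to 4, with 95% exact Poisson intervals; the axis is logarithmic above 1 CPM and linear below. eGFP is high in ciliated cells of libraries 1 and 4, spread over all classes in library 2 and at 0 in library 3, and Cfap54 is low in ciliated cells of library 2.

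Sprr1a was also higher in library 2 in secretory cells. It stood at 245, 583, 228 and 72.5 CPM, 8.03-fold (7.598 to 8.495) higher in library 2 than in library 4, with libraries 1 and 3 between them. A UMI of it was found in 58.2% of secretory cells in library 2 and 25.2% in library 4 (24.7% and 3.798% after thinning), and in 4.74% and 2.43% of ciliated cells. Krt6a, a keratin of stressed and wounded epithelium, stood at 15.9, 39.6, 36.5 and 8.25 CPM, low in libraries 1 and 4. Among the genes apart, Psca had the largest difference in CPM towards library 2, at 1734, 1688, 1326 and 686 CPM, with library 4 below the other 3. Tm4sf1, a tetraspanin-like surface protein, stood at 74.2, 172, 72.3 and 53.9 CPM and the protease Prss23 at 42.1, 134, 56.9 and 35.6 CPM, both highest in library 2. Abcb1b, a drug efflux pump, had 428 and 16 UMIs and stood at 1.62, 23.3, 5.33 and 0.820 CPM. Inhba, an activin subunit, stood at 60.4, 55.4, 14.4 and 20.2 CPM and Fn1, fibronectin, at 19.4, 20.9, 8.22 and 8.197 CPM, with libraries 1 and 2 above 3 and 4. The squamous list had 3 of 12 tested members higher (Sprr1a, Psca and Sbsn) and 2 lower (Ecm1 and Ly6g6c), where 1.26% and 0.881% of all genes were, with a median of -0.07, beside a median of 0.02 over all genes tested. The 10 tuft cell markers summed to 86.8 CPM in secretory cells of library 2 and 45.9 CPM in library 4; their part in the genes higher in library 2 was not tested.

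Genes lower in library 2 secretory cells included acute phase and antibacterial products. Lcn2, a siderophore-binding protein that withholds iron from bacteria, stood at 156, 22.7, 45.2 and 112 CPM, with libraries 2 and 3 below 1 and 4 and 4.92-fold (4.43 to 5.48) between libraries 2 and 4. Hp, haptoglobin, showed the same pattern at 393, 189.6, 168 and 476 CPM, as did Chil1, a chitinase-like protein, at 14.3, 2.72, 3.21 and 15.2 CPM. Areg, an EGF receptor ligand, stood at 33.5, 19.5, 45.3 and 52.8 CPM, Cxcl5, a neutrophil chemokine, at 8.94, 8.05, 15.9 and 22.2 CPM, and Cfb, complement factor B, at 26.6, 11.3, 17.4 and 25.9 CPM; library 2 was the lowest of the 4 for each. Aqp5, the apical water channel, stood at 415, 382, 529 and 846 CPM with library 4 the highest. Pianp had 0 UMIs in library 2 and 144 in library 4, at least 45.2-fold lower against a floor of 3 UMIs; library 3 also had 0. Ecm1, an extracellular matrix protein, stood at 19.98, 12.1, 42.9 and 47.4 CPM and Krt4, a keratin of hillock cells, at 54.3, 51.9, 106 and 119.8 CPM, lower in library 2 like 5 of the 6 hillock markers. Lgals3, a galectin, was the other, at 5588 against 4706 CPM. Psmb9, an immunoproteasome subunit, stood at 3.18, 1.96, 5.06 and 6.51 CPM. It was the 1 of 15 MHC class I genes that was apart, where 0.881% of all genes tested were lower. Of the 15, 13 lay below 0 and the median was -0.40.

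Several abundant secreted products lay closer between the libraries. Of 12 tested secreted defence genes, 2 were apart, Lcn2 and Chil1, both lower, where 0.881% of all genes were lower and 1.26% higher. Bpifa1, an antibacterial surfactant protein and the most abundant of them, stood at 119600, 142490, 151800 and 160200 CPM, Ltf, lactoferrin, at 4419, 4526, 5952 and 4971 CPM, and Lyz2 at 2524, 4634, 5653 and 3315 CPM. In the list of secretoglobins and surfactant proteins, 1 of 8 tested genes was apart. This was Hp, haptoglobin, which is neither, so no secretoglobin or surfactant gene tested was apart. Scgb3a1 stood at 38110 against 27989 CPM and Scgb3a2 at 19115 against 21435 CPM. Muc5b, the main gel-forming mucin of the mouse airway, stood at 202 against 246 CPM, and Tff1, a trefoil peptide, was the 1 of 17 mucin and goblet genes apart, at 6.25 against 2.100 CPM from 31 and 13 cells. In the xenobiotic list Cyp2b10 was higher (87.1 against 39.7 CPM) and Aox3 lower (91.2 against 204 CPM) of 20 tested. In the antioxidant list Mt2, a metallothionein, and Gsta1, a glutathione transferase, were higher of 28 tested, at 303 against 146 CPM and 11.5 against 4.66 CPM. Some calls rested on few cells. Ccl5, a chemokine, had 152 and 1 UMIs, but 12 cells of library 2 held them, and 90.8% lay in 5 of those cells. Ifit1, an interferon gene, stood at 29.5 against 11.99 CPM with 79.3% of its library 2 UMIs in 5 cells, and at a log2 ratio of -0.59 with the highest 1% of cells left out.

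Over all secretory genes 1.26% were higher and 0.881% lower in library 2. Of 22 interferon genes tested 2 were higher (Rsad2 and Ifit1) and 1 lower (Ifi44), with a median log2 ratio of -0.36. Rsad2, the antiviral enzyme viperin, stood at 3.29, 5.38, 3.12 and 1.28 CPM and Ifi44 at 5.39, 3.04, 6.32 and 8.71 CPM. Of 33 immediate early and heat shock genes Fosb, an AP-1 subunit, was the 1 apart, at 32.9, 40.4, 122 and 95.8 CPM with libraries 1 and 2 below 3 and 4. None of 17 NF-kB and acute response genes or 22 endoplasmic reticulum folding genes was apart. Of 8 cell cycle genes 2 were lower, Cenpf, a kinetochore protein, at 1.47 against 4.51 CPM and Stmn1, a microtubule destabilizer, at 13.3 against 27.9 CPM. Edn2, an endothelin, was higher in libraries 1 and 2, at 523, 643, 216 and 281 CPM, and Slc15a2 in libraries 2 and 3, at 37.1, 244, 254 and 59.1 CPM.

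Some squamous genes were higher in basal cells of library 2. Of 18 tested squamous and cornified envelope genes 6 were higher and none lower (1.27% and 1.14% of all genes tested), with 16 of 18 above 0 and a median of 0.47, against -0.03 over all genes. Sprr1a stood at 1864, 3294, 1783 and 627 CPM, 5.26-fold (5.08 to 5.43) higher in library 2 than in library 4, which was the lowest of the 4. It was found in 69.6% of basal cells in library 2 and 45.4% in library 4 (56.6% and 26.2% after thinning). Lgals7, a galectin of stratified epithelium, stood at 28.98, 119, 52.7 and 20.4 CPM, Sbsn, suprabasin, at 10.6, 43.6, 13.6 and 13.7 CPM, and both were highest in library 2. Tgm1, the transglutaminase that cross-links the cornified envelope, stood at 26.1, 29.99, 15.4 and 8.65 CPM. Krtdap and Cnfn, 2 further cornified envelope genes, had 89 and 12 and 108 and 7 UMIs, held by 10 and 17 cells of library 2. Outside the list, Csta1, a cysteine protease inhibitor, had 116 and 1 UMIs from 19 and 1 cells, and Spink5, a serine protease inhibitor of skin and mucosa, 282 and 48 UMIs from 18 and 29 cells. Lgals7 likewise came from 41 and 38 cells.

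Of 27 tested basal keratin and anchoring genes 1 was apart, a share close to the 2.41% of all genes. This was Krt6a, at 371, 662, 336 and 189.8 CPM, highest in library 2 and lowest in library 4. Krt17 stood at 3339, 3966, 3682 and 2378 CPM and Krt16 at 599.5, 696, 789.8 and 436 CPM, below 2-fold. Plet1, a surface protein of epithelial progenitors, stood at 96.6, 377, 161 and 65.8 CPM. Sox9, a transcription factor, stood at 25.9, 53.98, 48.6 and 11.3 CPM and Inhba at 59.6, 65.97, 22.7 and 17.2 CPM; library 4 was the lowest in both. Sox4, a transcription factor of immature cells, stood at 1009 against 484 CPM. Among chemokines, Cxcl2 stood at 71.6, 79.9, 53.9 and 25.7 CPM and Ccl20 at 46.9, 66.5, 31.4 and 26.1 CPM, both higher in library 2, and Cxcl17, a mucosal chemokine, lower, at 71.6, 46.6, 90.8 and 185 CPM. Hmox1, heme oxygenase, and Mt2 were the 2 of 26 antioxidant genes apart, at 470.4, 565, 445 and 244 CPM and 806, 632, 471 and 288 CPM, and Defb1, a beta-defensin, stood at 154, 209, 88.5 and 91.5 CPM. No Notch (8 tested) or EGF receptor ligand gene (8 tested) was apart. Notch1 stood at 95.4 against 61.5 CPM and Hbegf at 887 against 580.2 CPM.

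The genes lower in library 2 basal cells included Bpifa1, a product of secretory cells. It stood at 10568, 7191, 14295 and 21086 CPM, 2.93-fold (2.89 to 2.97) lower than in library 4. The 10 secretory cell markers summed to 22427, 17693, 30303 and 38435 CPM in basal cells, and library 2 was the lowest and library 4 the highest. The gate caps Scgb1a1 in basal cells, so this sum was bounded in part by the rule, and the part of secretory RNA in these differences was not tested. Scgb3a2 stood at 2359, 2424, 4538 and 4700.4 CPM, below 2-fold between libraries 2 and 4 and so not apart. Agr2, a chaperone of mucin folding, stood at 65.5, 55.1, 80.2 and 137 CPM. Cyp4a12b, a cytochrome P450, stood at 7.54, 9.54, 22.7 and 30.5 CPM, with libraries 1 and 2 below 3 and 4. Nupr1, a stress-induced nuclear protein, stood at 1466, 939, 1872 and 1966 CPM and Tspo, a mitochondrial translocator protein, at 393, 295, 396 and 696 CPM. Top2a, a topoisomerase of dividing cells, was the 1 of 13 tested cell cycle genes apart, at 6.82 against 17.05 CPM from 12 and 38 cells, and 12 of the 13 lay below 0. Over all genes tested in basal cells 1.14% were lower and 1.27% higher. Eif2s3y, a translation initiation factor on the Y chromosome, stood at 24.7, 10.9, 23.4 and 24.4 CPM, lowest in library 2, while Ddx3y stood at 56.8, 50.98, 77.6 and 60.6 CPM. None of the 33 immediate early and heat shock, 19 hypoxia and glycolysis or 12 MHC class I genes tested was apart in basal cells, where 2.41% of all genes were. Of 13 interferon genes Oasl1 was higher, from 20 and 11 cells, and Bst2, tetherin, and Ifi35 were lower, at 8.72 against 20.99 CPM and 13.4 against 31.05 CPM. The hemoglobin genes Hbb-bs and Hba-a1 were at 0 in library 2, and 1112 of the 1113 Hbb-bs UMIs of library 4 came from 1 cell.

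**Figure D5:**
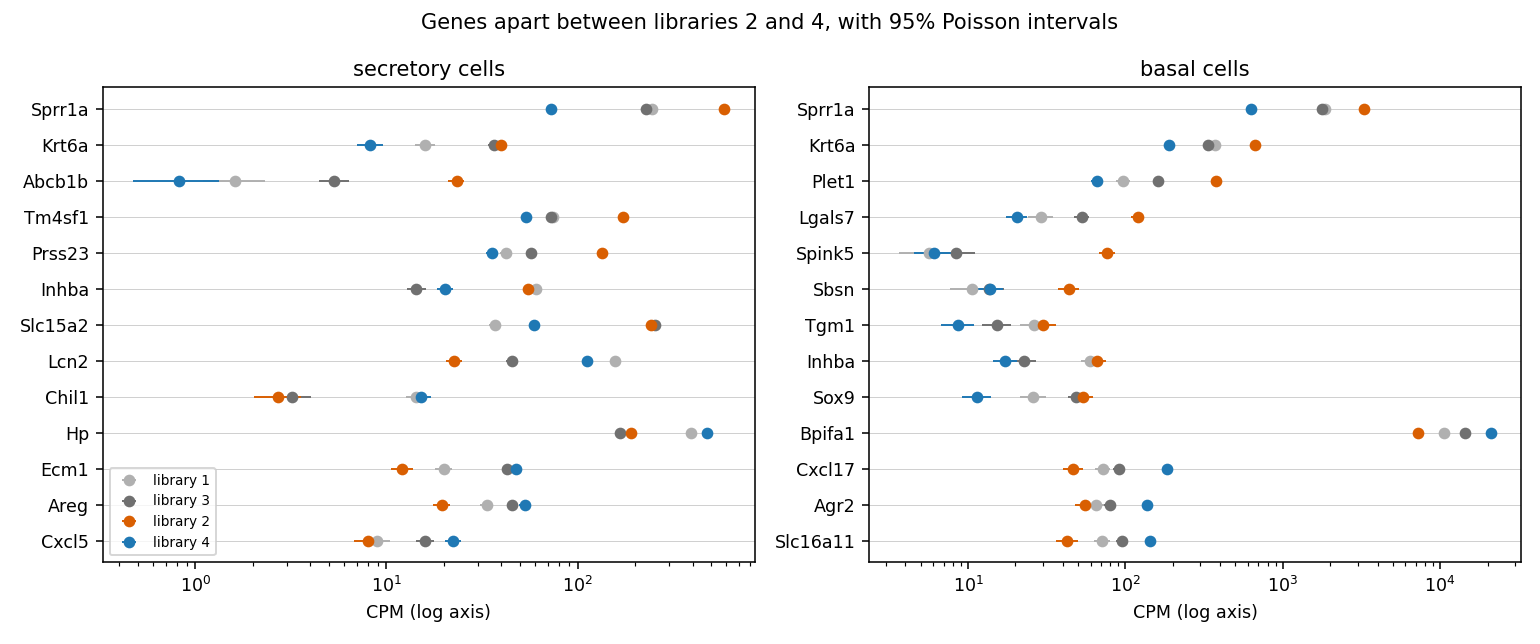
CPM (log axis) of 13 genes in secretory and 13 in basal cells for libraries 1 to 4, with 95% exact Poisson intervals, many narrower than the points. Libraries 2 and 4 are at opposite ends for Sprr1a and Prss23 in secretory cells and for Sprr1a, Krt6a and Bpifa1 in basal cells, with libraries 1 and 3 between them.

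Some of these genes were apart in more than 1 class. Of 383 genes apart in any class, 335 were so in 1 class. The ciliated, secretory and basal classes tested 6326, 9083 and 7387 genes, of which 1.07%, 2.14% and 2.41% were apart. A gene apart in 1 class was not always tested in another, so these counts do not measure how far the classes differ. Genes higher in library 2 in all 3 classes included Gm8797, H2ac18, Plac9a, Rpl29, Sprr1a and Tpm3-rs7, and 1 gene was lower in all 3, Rnaset2a, a ribonuclease. Secretory and basal cells, with 194 and 178 genes apart, shared 39 in the same direction, among them Inhba, Krt6a, Plet1, Sox9 and Abcb1b. Muc21, a membrane mucin, and eGFP were higher in 1 class and lower in another. Libraries 2 and 4 were the lowest and highest of the 4 libraries for 32 of the 68 genes apart in ciliated cells. In secretory and basal cells this held for 135 of 194 and 119 of 178. These genes were chosen as apart between libraries 2 and 4 in the same counts, which makes those libraries more likely to be the ends. No share over all genes tested is set beside these counts. Each gene was put in 1 pattern over the 4 libraries, with pairs of libraries placed before single ones. Library 2 alone lay at least 2-fold above each of the other 3 for 3 genes in ciliated, 11 in secretory and 15 in basal cells, and at least 2-fold below them for 5, 0 and 3, while libraries 2 and 4 each stood alone for Sprr1a in secretory cells and for Rpl29 and Oasl1 in basal cells. Libraries 2 and 3 both lay above 1 and 4 for 12, 9 and 4 genes, and below them for 6, 7 and 3. Genes side by side in the genome that were apart in the same direction formed 1 pair in ciliated, 6 in secretory and 10 in basal cells. These came from 65, 193 and 177 genes apart that had a place in the genome. Among them were Sprr2k with Sprr1a in secretory cells and Sbsn with Dmkn and Krtdap in basal cells. No share over all neighbouring genes is set beside these counts, so whether genes apart lie together more often was not tested.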

How the data were processed

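Tracheal cells of 4 pools were captured with the 10x Genomics 3' assay. The deposited table holds raw UMI counts per gene and barcode, made with Cell Ranger 6.0.1, per the file headers, on GRCm39, per the submitters' processing notes. It is 1 matrix of 22583 features and 21667 barcodes whose suffix gives the library. The filters removed 1308 barcodes. Libraries held 39658153 to 53491773 UMIs in all. UMIs of each class were summed per library and scaled to CPM. Exact Poisson and Clopper-Pearson 95% intervals cover counting error only; reads and cells of a pool are not replicates. Log2 ratios were taken with 1 CPM added, and folds are plain ratios of CPM.

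Named genes are, per class, the 10 with the largest ratio in each direction, the 5 with the largest CPM difference, the mutated genes, list members past 2-fold and up to 3 further members of a list. Others, such as Timp3, Idi1, Cyp51, Pmvk, Ang, Tm4sf1, Prss23, Fn1, Sox9, Nupr1 and Tspo, were chosen after their values were seen. The classes and gene lists were chosen with earlier results of these data known.

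Doublets were scored with scanpy 1.11.5. Its automatic threshold marked 0.0253% and 0.0368% of cells in libraries 2 and 4 and so had not worked, and no cell was removed in the values given. An alternative removed the 125 and 237 highest scores. Further alternatives changed scaling, depth, minimum UMIs, the added CPM, the fold, cell filters and gates. Python 3.11.15, numpy 2.4.6, scipy 1.17.1 and pandas 2.3.3 were used. Gene coordinates on GRCm39 were not used here, and gene neighbours come from GENCODE vM21 on GRCm38, which placed 22477 features. A few genes are not reported here.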

Additional observations from a re-analysis of the deposited data

Results flagged for a closer look

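eGFP and Muc21 went in opposite directions in different classes, and for neither was the difference between classes tested, since each side is 1 library. The log2 ratio of library 2 over library 4 for eGFP was -4.51 in ciliated, 2.33 in secretory and 3.17 in basal cells. For Muc21, a membrane mucin of stratified epithelium, it was -1.36 in secretory cells, from 10 and 24 cells in libraries 2 and 4, and 1.46 in basal cells, from 18 and 22 cells.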

How the results depend on the processing

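No paired analysis was possible because each group is 1 library, so there are no replicates to pair. For the same reason no replicate could be left out. Over 14 alternatives, 13 planned and 1 chosen after seeing the data (the highest 1% of cells of each gene left out), 3 of 1638 values of named genes in the 117 cases (a gene in a class) that were apart changed sign: Psca in ciliated cells was at -0.70 and Drc1 in secretory cells at -0.0004 under stricter gates, and Ifit1 in secretory cells was at -0.59 without the highest 1% of cells. Of 3668 values of named genes that were not apart, 142 had the other sign, and so had 60 of 1344 log2 ratios of summed lists, 8 of them over 0.1 from 0 on both sides. Beyond their counting intervals moved 739 values of named genes and 229 of summed lists. List medians were not recomputed. The minimum of UMIs and the fold do not enter a log2 ratio, so under those settings the values repeat the main ones and could not change. The added CPM likewise does not enter the summed lists. Cases that were apart had been chosen as past 2-fold in these same counts, which makes a change of sign less likely. The log2 ratio of Cfap54 in ciliated cells ranged from -5.52 to -3.63, that of Lyz2 from 1.81 to 2.25 and that of Sprr1a in basal cells from 2.34 to 2.49. Ranges were also wide for Abcb1b in secretory cells, from 2.28 to 4.56, and Spink5 in basal cells, from 2.36 to 4.12. For eGFP they were 1.89 to 3.62 in secretory and 2.99 to 4.37 in basal cells. Counts of genes higher and lower in library 2 moved more, given for ciliated, secretory and basal cells in turn. With cells thinned to 1000 UMIs they were 14 and 19, 16 and 29, and 28 and 43, so the share of higher calls in secretory cells was 35.6% in place of 58.8%, with 2335 genes tested in place of 9083. With at least 400 UMIs they were 14 and 16, 46 and 34, and 36 and 32. At 1.5-fold they were 155 and 225, 552 and 510, and 339 and 511. With no minimum of UMIs they were 179 and 188 in ciliated and 335 and 220 in basal cells. With 5 CPM added they were 35 and 22 in secretory cells, and 38 were lower in basal cells. Stricter gates left 14 and 22 in ciliated cells, and moved the ratio of library 2 over library 4 to 1.248 for the ciliated and 0.455 for the basal share. The cause of these moves was not tested, other than the smaller or larger number of genes tested.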
